A study of Arabidopsis thaliana with 12 samples.

Results

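Among 33320 nuclear loci of Arabidopsis thaliana, 188 were higher after 30 min at 43 °C, whether or not the seedlings had been primed. In the plain scaling that chose them, they were not higher after 30 min at 38 °C. With another scaling, described below, 66 of them had a priming mean above control. The 188 were chosen on their mean level in reads per 1000000 nuclear reads (CPM). The rule asked for at least 5 CPM in heat shock, and at least 3 times the control in heat shock and in primed heat shock. Priming had to be at most the control level. Of all nuclear loci, 15847 reached 5 CPM in heat shock, 444 of these were also at least 3 times the control there, 355 held the fold in primed heat shock as well, and 188 of those had a priming level at or below control. The other 167 of the 355 had a priming level above control. Because heat shock, primed heat shock, priming and control levels chose the loci, differences of the heated groups from control are given below as description.

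Every library came from whole wild-type Col-0 seedlings in liquid culture, with cotyledons fully open. The 4 groups were primed heat shock (7 days old; 38 °C for 2 h, recovery for 22 h at 21 °C, then 43 °C for 30 min), heat shock (7 days old; 43 °C for 30 min), priming (6 days old; 38 °C for 30 min) and control (6 days old, untreated). The treatment protocol common to all labels instead gives 2 h for heat, so the length of the exposures differs between these sources. Each group had 3 libraries, replicate numbers follow the harvest date, and no label states that the replicates were separate cultures. Both 43 °C groups were 7 days old and the control 6 days old, so age and 43 °C cannot be told apart. The libraries were ribosome-depleted and strand-specific, with 72075150 to 152118790 aligned reads, of which 37112430 to 87063684 fell on nuclear loci. 1 CPM was therefore 37.1 to 87.1 reads. In bulk seedlings, fewer cells of a type and less RNA per cell cannot be told apart.

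As background, a plant gene is transcribed until its 3′ end is cut, and the polymerase then runs on for some distance before it is released. In the compact Arabidopsis genome many genes lie close to a neighbour, often with their 3′ ends facing each other. The set holds genes of several kinds. BIP3 encodes an Hsp70 chaperone of the endoplasmic reticulum, CAF1a a deadenylase that shortens the poly(A) tails of mRNA, and many others encode pentatricopeptide repeat (PPR) proteins, which bind organelle RNA for splicing, editing and stability.

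The 3 sequences that follow lie between the annotated 3′ end of a locus of the set and the 3′ end of the gene that faces it. They are shown because such a facing gene was the feature most of the set shared. They are read from RefSeq assembly TAIR10.1 on the strand of the named locus, downstream of its end, and no letters are marked. The BIP3 gap is chr1:2929108-2929216 on the minus strand, 109 bases towards SRC2. The AGD13 gap is chr4:2720309-2720492 on the minus strand, 184 bases towards UBQ10, a polyubiquitin gene. The AT5G45440 gap is chr5:18411978-18412058 on the minus strand, 81 bases towards AT5G45430.
BIP3: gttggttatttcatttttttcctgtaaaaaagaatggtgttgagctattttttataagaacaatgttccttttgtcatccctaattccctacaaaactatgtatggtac
AGD13: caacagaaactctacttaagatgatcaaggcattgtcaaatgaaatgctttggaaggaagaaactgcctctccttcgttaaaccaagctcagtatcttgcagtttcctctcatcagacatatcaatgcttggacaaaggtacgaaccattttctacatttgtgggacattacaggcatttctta
AT5G45440: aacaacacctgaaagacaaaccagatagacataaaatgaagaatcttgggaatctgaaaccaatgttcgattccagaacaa

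The loci were low in abundance. Their median level was 8.48 CPM in primed heat shock, 8.76 CPM in heat shock, 0.726 CPM in priming and 1.56 CPM in control. Together they took 0.223% to 0.275% of nuclear reads in primed heat shock, 0.235% to 0.255% in heat shock and 0.023% to 0.0266% in priming, against 0.0443% to 0.0469% in control. Priming libraries were thus lowest and both 43 °C groups highest, with no overlap between the summed levels of priming, control and the heated groups. The rule chose the loci on this order in the same values, so it is not a result. In plain CPM, 70.2% of all tested loci also had every priming library below every control library. In heat shock, 116 loci stayed under 10 CPM and 24 reached 20 CPM.

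**Figure D1:**
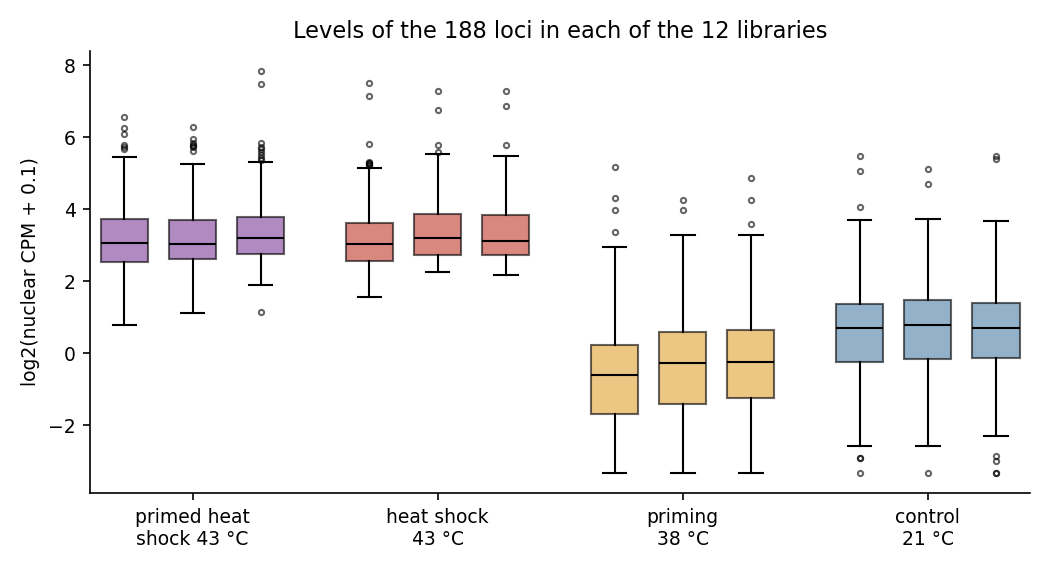
Box plots of the 188 loci in each of the 12 libraries, as log2(nuclear CPM + 0.1), with replicates 1 to 3 from left to right in each group; boxes span the quartiles, lines mark the median, whiskers reach to 1.5 times the box height and circles are loci beyond them. The boxes of all 6 libraries from 43 °C stand above those of the control libraries, and the priming libraries stand lowest, an order on which the loci were chosen.

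The size of the rise varied over the set. The primed heat shock mean was 3.03 to 118 times the control mean, with a median of 5.89, and the heat shock mean was 3.04 to 159 times the control mean, with a median of 5.64. These ranges leave out AT5G35780, a transcribed pseudogene without a read in any priming or control library. AT5G35780 had 8.82, 9.99 and 9.25 CPM in primed heat shock and 4.17, 5.78 and 5.24 CPM in heat shock. Against a floor of 3 reads over the 3 control libraries (0.0135 CPM), it was at least 692-fold higher in primed heat shock and at least 374-fold higher in heat shock. All 188 loci were higher in each primed heat shock library than in any control library, where 29.2% of the 23383 nuclear loci tested were, and all 188 were higher in each heat shock library, where 28.6% of tested loci were. Each heat shock library was also above every priming library for all 188, where 68.6% of tested loci were. The rule asked for such a rise, so these counts are not a result.

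The lower level in priming was less uniform than the rise. The priming mean was 0 to 0.999 times the control mean, with a median of 0.464, and 101 loci were at or below 0.5 times the control. All priming libraries lay below all control libraries for 129 loci, and the groups overlapped for 59; 70.2% of tested loci lay below control in the same way. Plain CPM placed the median tested locus at a log2 difference of -0.74 in priming against control. After edgeR's scaling by the trimmed mean of M-values (TMM), which sets that median near 0, the set's median was -0.35 log2 in priming against control. Under TMM, 14 of the 188 loci were called higher in priming, at log2 differences of 0.39 to 0.73 and against 27.5% of tested loci, and 66 were called lower, at -6.33 to -0.46 and against 27.6% of tested loci. The mean TMM-scaled CPM in priming was above control for 66 loci and at or below it for 122, so the absence of a rise at 38 °C depends on the scaling for part of the set. Without control replicates 1 or 2 the 14 became 9 or 8, and without priming replicates 2 or 3 they became 8 or 7.

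Membership was also chosen on 2 of the 3 harvest dates and read in the third. Holding out date 1, 195 loci were chosen; 195 were above control in the held-out primed heat shock and heat shock libraries, 183 were at or below control in the held-out priming library and 119 met every criterion. Holding out date 2, 193 were chosen, of which 173 were at or below control in priming and 133 met every criterion. Holding out date 3, 169 were chosen, of which 141 were at or below control in priming and 121 met every criterion. In each case every chosen locus was higher in both held-out 43 °C libraries than in the held-out control, while the priming criterion and the exact folds held for fewer. The share of all tested loci above control in single held-out libraries was not counted, so nothing is read from these counts. A low priming level was common in plain CPM. Of all tested loci, 70.2% had every priming library below every control library, so the priming counts are not particular to the set.

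The loci were described next by their place in the genome. A gene on the opposite strand faced the 3′ end of 152 of the 188 loci (80.9%) within 500 bases or overlapped it. The same held for 56.9% of the 167 loci that rose at 43 °C with priming above control, and for 42.8% of 23271 tested loci with a place in the annotation. Within 100 bases the shares were 70.2%, 49.7% and 31.3%, and within 1000 bases 83.0%, 60.5% and 48.9%. A gene on the same strand ended within 500 bases upstream of 50.0% of the set, 51.5% of the 167 loci and 26.5% of tested loci. A divergent gene was as frequent for the set (23.4%) as for tested loci (22.0%), and a downstream gene on the same strand was rarer (14.9% against 27.2%). A facing or an upstream gene stood within 500 bases of 180 of the 188 loci (95.7%), against 80.8% of the 167 loci and 57.4% of tested loci. Of the set, 66 loci had both, 86 only the facing gene, 28 only the upstream gene and 8 neither. These shares are descriptions, and no test of enrichment was made.

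**Figure D2:**
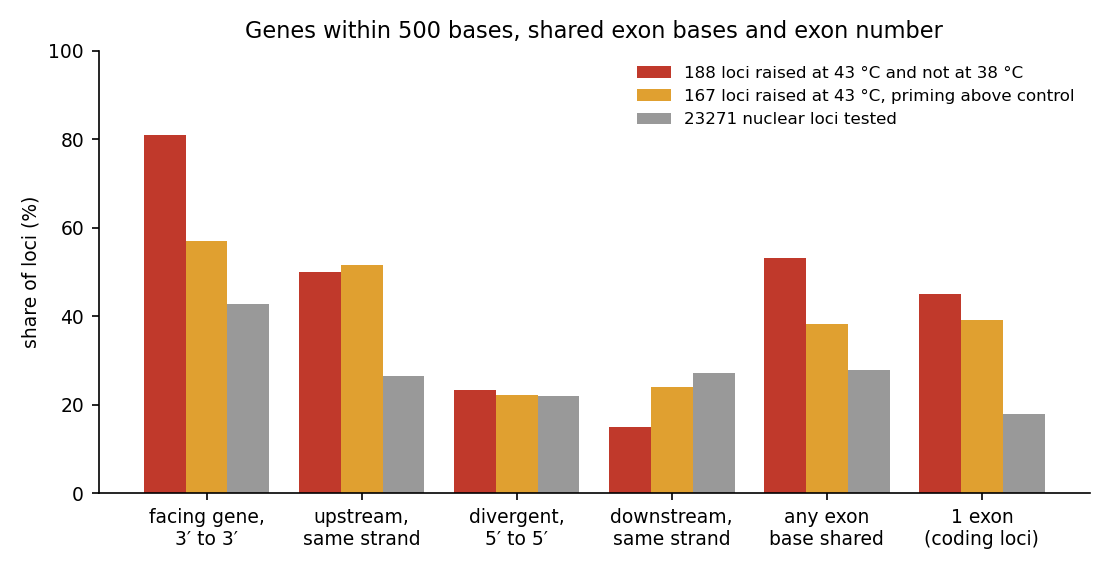
Share of loci (%) with a neighbouring gene within 500 bases in each orientation, with any exon base shared with another locus, and with 1 exon, for the 188 loci, the 167 loci that rose at 43 °C with priming above control, and the 23271 tested loci. The largest gaps between the set and the tested loci are at the facing gene (80.9% against 42.8%) and at 1 exon (45.0% against 17.9%).

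Many of the loci also shared bases with another annotated gene. Some exon base was shared by 100 of the 188 loci (53.2%), against 38.3% of the 167 loci and 27.9% of tested loci. At least 50% of exon bases were shared by 22 (11.7%), against 5.99% of the 167 loci and 3.88% of tested loci. The library preparation kept strand, but the strand setting of the read counting is not given in the sources used here. Reads of these loci and of an overlapping gene on the opposite strand therefore cannot be told apart. The 88 loci that share no exon base still had a facing gene within 500 bases in 59 cases (67.0%). Copies elsewhere were near the share of tested loci: 8 (4.26%) had at least 10% of their 31-base words in another place of the genome, against 5.56%. None drew 50% of them from an organelle genome, against 0.468% of tested loci.

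Gene models in the set were short in exons. Of its 180 protein-coding loci, 81 had 1 exon (45.0%), against 39.2% of the coding loci among the 167 and 17.9% of tested coding loci, and the median exon number was 2, 2 and 4. Median model length was 1436 bases for the set, 1154 bases for the 167 loci and 1453 bases for tested loci. Median GC content was 41.8%, 42.2% and 41.3%.

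The facing genes had a similar median in both 43 °C groups and in control. Of the 152, 149 had a measured level, which ran from 0 CPM per kb upwards in every group. Their median was 37.9 CPM per kb in primed heat shock, 36.3 CPM per kb in heat shock, 25.2 CPM per kb in priming and 38.5 CPM per kb in control. These are plain CPM, in which the median tested locus was itself at -0.74 log2 in priming against control. Under TMM the 146 facing genes tested had a median log2 difference of 0.21 in priming against control. For comparison, the facing genes of all tested loci had a median of 8.68 CPM per kb in heat shock and 8.16 CPM per kb in control. In heat shock against control, edgeR called 34 of the 149 facing genes higher and 39 lower and gave no call for 76. These shares are near those of all tested loci, 25.0% called higher and 26.8% lower. The log2 difference of the facing genes had a median of -0.032 and a range of -1.25 to 6.91. In control the facing gene was above its partner from the set, per kb, in 144 of 149 pairs (96.6%), and at least 10 times above it in 128 (85.9%); among tested loci these shares were 47.2% and 18.8%. The rule favours loci low in control (median 1.56 CPM, against 12.9 CPM for tested loci), so this difference is in part set by the selection. The level of the locus was a median 19.5% of its facing gene in heat shock, 1.79% in priming and 2.78% in control. The rule asked for the rise of the locus, so the larger share in heat shock is in part set by the selection. The upstream genes of the same strand, 91 with a level, had medians of 18.8 CPM per kb in primed heat shock, 20.2 in heat shock, 13 in priming and 21.3 in control. Under TMM the 87 of them tested had a median log2 difference of -0.017 in priming against control.

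**Figure D3:**
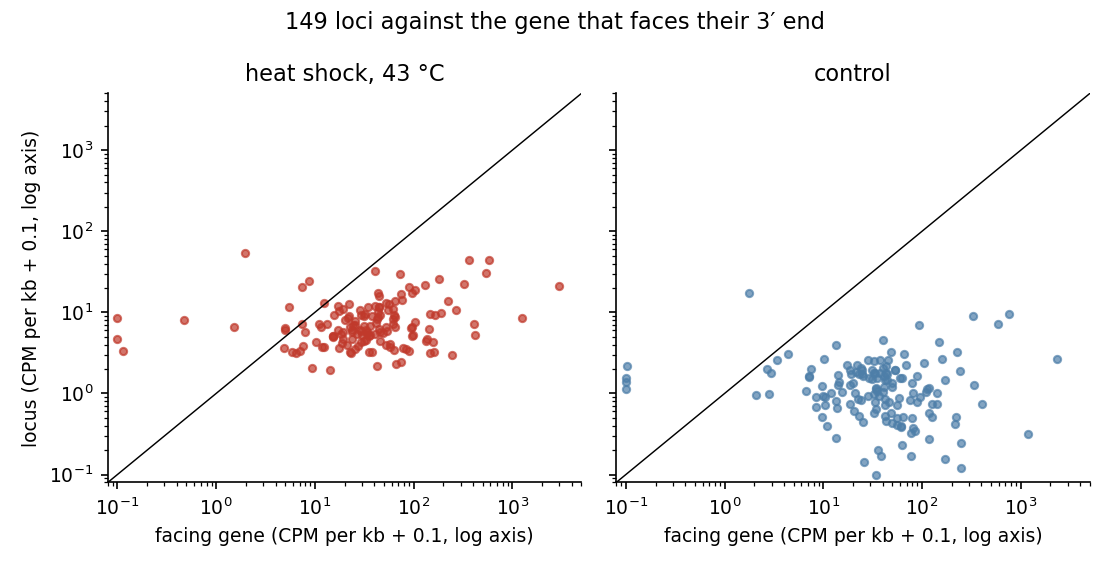
Level of each of 149 loci against the gene that faces its 3′ end, both in CPM per kb + 0.1 on log axes, in heat shock (left) and control (right); the line marks equal levels. The loci stand closer to the line in heat shock, and the facing genes have medians of 36.3 CPM per kb in heat shock and 38.5 CPM per kb in control. The rule asked for the rise of the loci, so this shift is in part set by the selection.

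Across 147 pairs, the gain of a locus in heat shock over control and the heat shock level of its facing gene, both per kb, had a Spearman rho of 0.26 as a description; both values come from the same libraries. Among tested loci under 5 CPM in control, 1521 had a facing gene within 500 bases at 10 times their own level or more, and 123 of them (8.09%) belonged to the set. Of the 6028 with no such gene, 52 (0.863%) belonged to it. Both limits were chosen after values had been seen, and both the split and the rule use the control level of the locus, so the difference in share is in part set by the selection. Whether reads from beyond the 3′ end of a neighbour contribute to the counts of these loci was not tested.

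3 pairs show the pattern at loci that share no base with their neighbour. BIP3 had 13.3, 16.6 and 20.8 CPM in primed heat shock, 19.8, 16 and 18.4 CPM in heat shock, 0.388, 0.306 and 0.35 CPM in priming and 0.224, 0.391 and 0.728 CPM in control. The heated libraries stood far above all others, priming and control overlapped, and the heat shock mean was 40.3 times the control mean. SRC2, 109 bases beyond the 3′ end of BIP3, had 1253 CPM per kb in heat shock and 1190 CPM per kb in control, where BIP3 had 8.53 and 0.212 CPM per kb.

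AGD13, which encodes an ARF-GAP domain protein, had 28, 28.8 and 23.6 CPM in primed heat shock, 25, 28.2 and 30.2 CPM in heat shock, 2.82, 2.76 and 2.4 CPM in priming and 2.97, 3.69 and 3.52 CPM in control. Its facing gene UBQ10 had 2947 CPM per kb in heat shock and 2348 CPM per kb in control. Both 43 °C groups of AGD13 overlapped each other. Priming lay just below control in plain CPM, and under TMM AGD13 was called higher in priming (log2 0.39, adjusted p = 0.0231, edgeR).

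AT5G45440, a P-loop nucleoside triphosphate hydrolase gene of 1 exon, had 42.7, 38 and 45.5 CPM in primed heat shock, 37.5, 43.1 and 41.1 CPM in heat shock, 3.64, 3.39 and 3.91 CPM in priming and 5.66, 5.9 and 5.32 CPM in control. AT5G45430 had 40.3 CPM per kb in heat shock and 40.6 CPM per kb in control, so in heat shock AT5G45440, at 32.5 CPM per kb, came near its neighbour, and in control, at 4.51, it did not.

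Several of the loci with the highest levels or folds overlapped a strongly expressed gene. ATPC2 encodes a second gamma subunit of the chloroplast ATP synthase, and all its exon bases also lie in another locus. It had 53, 54 and 52.7 CPM in primed heat shock, 55.9, 55.3 and 54.8 CPM in heat shock, 7.2, 8.05 and 7.84 CPM in priming and 11.9, 10.9 and 11 CPM in control. All priming libraries were below all control libraries in plain CPM, as for 70.2% of tested loci, while the TMM log2 difference was 0.18 (adjusted p = 0.0677, edgeR). ATPC2 faces AVP1, the vacuolar proton pyrophosphatase, at 368 CPM per kb in heat shock and 330 CPM per kb in control.

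AT3G09250, a gene of the NTF2 family, overlaps the end of PYK10, a beta-glucosidase of ER bodies. AT3G09250 had 44, 49.5 and 42.5 CPM in primed heat shock, 39.3, 38.7 and 41 CPM in heat shock, 3.68, 3.44 and 4.04 CPM in priming and 5.87, 6.41 and 6.72 CPM in control. PYK10 itself had 579 CPM per kb in heat shock, 200 in priming and 583 in control. CWINV2, a cell wall invertase, had 4.83, 4.37 and 6.11 CPM in primed heat shock, 4.61, 6.42 and 6.48 CPM in heat shock, 0, 0.0279 and 0 CPM in priming and 0.0345, 0.0689 and 0.026 CPM in control. Its 135-fold ratio of heat shock to control rests on a control level near 0, and it overlaps the end of UBQ1 by 42 bases. UBQ1, a ubiquitin extension gene, had 245 CPM per kb in heat shock and 251 CPM per kb in control.

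8 loci had neither a facing nor an upstream neighbour within 500 bases: ORA47, AT1G50750, AT1G66780, AT2G36695, AT2G30020, LYK2, CAF1a and WRKY49. Of these, LYK2 and ORA47 still share 27.9% and 8.44% of their exon bases with another locus. CAF1a and AT2G30020 were the 2 most abundant of the whole set, per kb as well as in CPM. CAF1a (chr3:15952008-15953346, minus strand, 1 exon) had 94.9, 77.7 and 230 CPM in primed heat shock, 181, 155 and 156 CPM in heat shock, 35.8, 19.2 and 29 CPM in priming and 44.3, 34.6 and 45 CPM in control. Primed heat shock replicate 3 was above every heat shock library and the other 2 primed libraries were below them all, and edgeR gave a log2 difference of -0.22 ± 0.40 (SE) with an adjusted p of 0.759 for primed heat shock against heat shock.

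AT2G30020, a protein phosphatase 2C gene (chr2:12814271-12816360, plus strand, 2 exons), had 75.8, 61.5 and 178 CPM in primed heat shock, 142, 108 and 117 CPM in heat shock, 19.8, 15.8 and 18.9 CPM in priming and 33.2, 25.9 and 41.9 CPM in control. ORA47, an AP2/ERF factor of jasmonate synthesis, had 4.4, 4.59 and 19.1 CPM in primed heat shock, 10.9, 7.77 and 7.62 CPM in heat shock, 0.862, 1.13 and 0.674 CPM in priming and 2, 1.65 and 2.7 CPM in control. In both genes primed heat shock replicate 3 was again the highest of the 12 libraries and the other 2 primed libraries were below every heat shock library.

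Of the rest, AT1G66780, a MATE efflux carrier gene, had 8.17, 7.77 and 9.43 CPM in primed heat shock, 7.02, 7.28 and 6.4 CPM in heat shock, 0, 0.0279 and 0.0539 CPM in priming and 1.07, 0.884 and 1.08 CPM in control. It was nearly without reads in priming. WRKY49, a WRKY factor, spread widely in heat shock, with 4.4, 9.54 and 14.6 CPM against 1.69, 2.45 and 1.27 CPM in control. LYK2, a LysM receptor-like kinase gene, had 4.8, 4.22 and 8.56 CPM in primed heat shock and 8.01, 6.6 and 8.02 CPM in heat shock. Its means were 0.802 ± 0.113 CPM in priming and 1.34 ± 0.366 CPM in control (SD, n = 3 each). AT1G50750 had 18.6, 18.1 and 33.7 CPM in primed heat shock and 27, 24.2 and 24.7 CPM in heat shock. In LYK2 and AT1G50750 too, primed heat shock replicate 3 was the highest library and the other 2 primed libraries were below every heat shock library.

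Upstream sequence is shown for the chaperone gene BIP3 and for AT2G30020, which is among the most abundant loci. Each window is the 250 bases before the annotated gene start in RefSeq TAIR10.1, on the strand of the gene. Capitals mark ACGTG, the core of abscisic acid response elements, in BIP3 and TTGAC, the core of the W-box bound by WRKY factors, in AT2G30020, on either strand. The windows are chr1:2931851-2932100 (minus strand) for BIP3 and chr2:12814021-12814270 (plus strand) for AT2G30020.
BIP3: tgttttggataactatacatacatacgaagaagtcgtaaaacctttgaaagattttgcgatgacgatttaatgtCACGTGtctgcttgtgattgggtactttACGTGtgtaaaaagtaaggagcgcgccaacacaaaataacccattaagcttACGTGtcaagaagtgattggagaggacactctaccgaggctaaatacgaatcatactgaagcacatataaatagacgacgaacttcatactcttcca
AT2G30020: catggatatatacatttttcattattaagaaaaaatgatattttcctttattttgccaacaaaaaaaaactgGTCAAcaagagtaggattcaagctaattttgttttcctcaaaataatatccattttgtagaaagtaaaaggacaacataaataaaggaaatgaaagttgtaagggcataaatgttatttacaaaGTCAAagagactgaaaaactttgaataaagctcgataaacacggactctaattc

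Over windows of 250 bases before to 50 bases after the gene start, searched on both strands, the set was near the other loci for most of 13 motifs. TTGAC was in 48.4% of the set, 50.9% of tested loci and 49.5% of all 37897 windows. ACGTG was in 26.6%, 27.8% and 24.6%. The heat shock element letters GAANNTTC were in 12.8%, 11.6% and 11.4%, and TTCNNGAA in 8.51%, 9.09% and 9.49%. CCGAC, the core of the dehydration-responsive element, was in 17%, 15.9% and 15.3%, and CGCG in 13.3%, 13.7% and 13.2%. Larger gaps in either direction were at GCCGCC (4.79%, 2.68% and 2.72%), TGGGCC (11.7%, 17.3% and 13%) and CACGTG (5.32%, 8.38% and 6.46%). The longer W-box strings contain the TTGAC core: TTGACC was in 12.8% of the set and 14.4% of tested loci, and TTGACT in 19.1% and 22%. CGCGTT, which contains CGCG, was in 3.19% and 3.67%, and AGGGG, a stress response element, in 11.7% and 12.4%. The G-box letters CACGTG contain ACGTG.

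PPR genes were the most frequent class of named function among the loci. By product name they made up 21 of the 180 coding loci (11.7%), against 269 of 22260 tested coding loci (1.21%). The class was singled out after the members had been seen. Outside the set it also took in SAR1, SAR3 and EBS1, which are not PPR genes. PPR genes under other product names were left out, among them MEF22 and APPR6 of the set. The median of the 21 was 8.34 CPM in primed heat shock, 8.38 CPM in heat shock, 0.555 CPM in priming and 1.7 CPM in control. Heat shock was 3.06 to 12.9 times control. Of the 21, 18 had 1 exon and 17 a facing gene within 500 bases. Over all 269 loci of the class the shares were 62.5% and 55.8%.

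Loci of this class outside the set were also counted, with SAR1, SAR3 and EBS1 among them. Of the other 248, edgeR called 98 higher and 28 lower in heat shock against control, with a median log2 difference of 0.25, where 25.0% of all tested loci were called higher and 26.8% lower. Of all 269, 132 were called higher and 21 lower in primed heat shock against control, where 29.5% of all tested loci were called higher and 29.8% lower. In priming against control 25 of the 269 were called higher (9.29%) and 149 lower (55.4%), with a median of -0.63. Among all tested loci 27.5% were called higher and 27.6% lower there. The 21 loci of the set were chosen from the upper end of these differences.

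**Figure D4:**
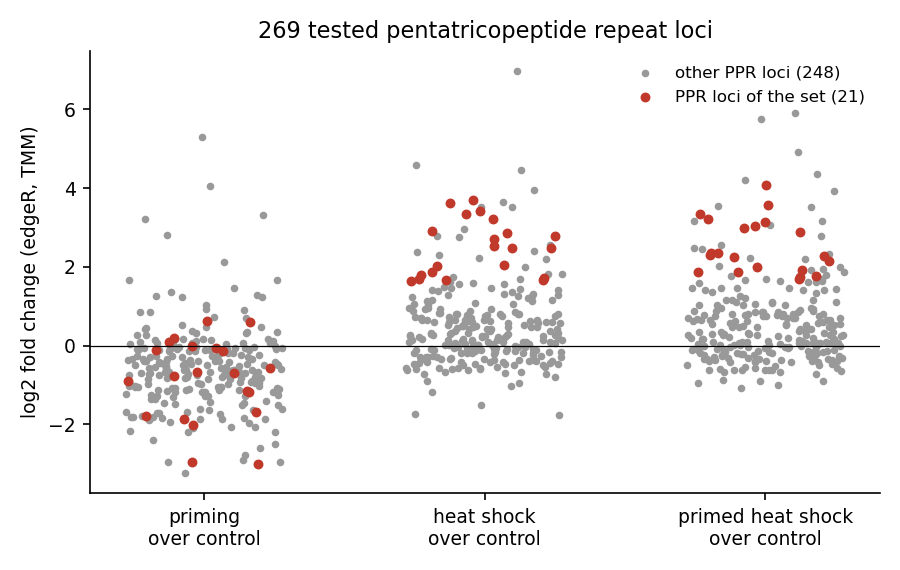
edgeR log2 fold change (TMM) of the 269 tested loci of the PPR class, by product name, in priming, heat shock and primed heat shock over control. Red points are the 21 loci of the set and grey points the other 248, spread sideways only to be seen. The grey points include SAR1, SAR3 and EBS1, which are not PPR genes. The grey points centre below 0 in priming and above 0 in both 43 °C comparisons, with a median of 0.25 in heat shock.

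Single PPR genes differed in their surroundings. AT1G03100 had 26.7, 33.1 and 33.6 CPM in primed heat shock, 32.5, 39 and 36.8 CPM in heat shock, 1.21, 2.74 and 2.59 CPM in priming and 3.43, 3.96 and 4.47 CPM in control. It shares 66.4% of its exon bases with other loci, and its facing gene MCCA, a methylcrotonyl-CoA carboxylase subunit, was itself called higher in heat shock (log2 1.39, adjusted p = 2.8e-07, edgeR). MEF29, a mitochondrial RNA editing factor that shares no exon base, had 6.83, 7.25 and 10.2 CPM in primed heat shock, 9.09, 12 and 13.4 CPM in heat shock, 0.215, 0.752 and 0.728 CPM in priming and 1.66, 1.78 and 1.91 CPM in control. Its priming libraries were all below control, also under TMM (log2 -0.91). MEF22, another editing factor, and OTP43, which is needed to splice the mitochondrial nad1 RNA, were 4.78 and 3.24 times the control in heat shock and share 83.9% and 52.7% of their exon bases.

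Beside BIP3, a pair of DnaJ genes belonged to the set, which gives 3 of 260 tested heat shock and chaperone genes (1.15%), against 180 of 22260 tested coding loci (0.809%). AT5G25530 had 7.86, 8.71 and 7.98 CPM in primed heat shock, 5.04, 5.28 and 6.5 CPM in heat shock, 0, 0.111 and 0.0808 CPM in priming and 0.0863, 0.103 and 0.13 CPM in control. AT5G37760 had 4.9, 5.12 and 7.11 CPM in primed heat shock, 6.09, 4.75 and 6.12 CPM in heat shock, 0.0646, 0.0836 and 0.108 CPM in priming and 0.259, 0.31 and 0.195 CPM in control. Both overlap the gene that faces them, by 634 and 723 bases, and that of AT5G37760 is TCH2, a calmodulin-like touch gene at 165 CPM per kb in heat shock and 220 in control.

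Some regulators are named here for their known roles, chosen after their values were seen. RKD2, an RWP-RK factor of the egg cell, had 8.79, 7.3 and 7.15 CPM in primed heat shock, 5.87, 6.6 and 6.62 CPM in heat shock, 0.108, 0 and 0.135 CPM in priming and 0.552, 0.54 and 0.624 CPM in control. MYB97, a pollen tube factor, was 16.1 times the control in heat shock, and SDC, an F-box gene silenced by DNA methylation, was 30.1 times the control. All of these overlap their facing gene, and for SDC 80.2% of the exon bases are shared. BZIP49, a membrane-bound bZIP factor, had 9.03, 7.45 and 7.44 CPM in primed heat shock, 7.15, 7.43 and 8.38 CPM in heat shock, 0.323, 0.404 and 0.296 CPM in priming and 1.02, 1.02 and 1.05 CPM in control. The libraries of both 43 °C groups overlapped there, and priming lay below control.

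Enzymes and ubiquitin ligase parts formed smaller groups. By product name, F-box proteins numbered 8 of 312 tested, tetratricopeptide repeat proteins 13 of 294 and HXXXD acyltransferases 4 of 50. All these classes were singled out after the members had been seen. The tetratricopeptide name also covers some PPR genes, such as APPR6. Protein kinases numbered 9 of 1256 and glycosyltransferases 4 of 174. Over all tested coding loci the share in the set was 0.809%, near that of protein kinases (0.717%). The F-box gene AT2G30615 had 30.3, 29 and 31 CPM in primed heat shock, 22.6, 27.8 and 25.7 CPM in heat shock, 1.75, 2.79 and 2.48 CPM in priming and 2.19, 3.25 and 2.47 CPM in control. AT3G02100, a UDP-glycosyltransferase gene, had 5.71, 6.64 and 6.42 CPM in primed heat shock, 5.82, 6.78 and 6.8 CPM in heat shock, 0.0862, 0.0139 and 0.0539 CPM in priming and 0.104, 0.138 and 0 CPM in control. It was among the loci with the largest ratio to control (80.4), again from a control level near 0. PCB2, the divinyl reductase of chlorophyll synthesis, had 55, 57.2 and 48.6 CPM in primed heat shock, 37.8, 46.3 and 44.2 CPM in heat shock, 10.3, 7.8 and 9.7 CPM in priming and 9.39, 9.21 and 11.7 CPM in control. Its priming and control libraries overlapped, and under TMM it was called higher in priming (log2 0.61, adjusted p = 0.00154, edgeR).

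Primed and unprimed heat shock were compared in the same fit. The rule is not symmetric between them, since its 5 CPM floor applies to heat shock only: loci low in heat shock and high in primed heat shock were left out. The primed mean was 0.359 to 2.5 times the unprimed mean, with a median of 0.969. Under edgeR's quasi-likelihood test with Benjamini-Hochberg adjustment, 14 of the 188 loci were higher in primed heat shock (7.45%, against 12.8% of tested loci) and 7 were lower (3.72%, against 11.7%). The median log2 difference of the set was 0.0095. Of the 167 loci without a call, 155 had a 95% interval of the log2 difference within -1 and 1, and standard errors over the set ran from 0.0761 to 0.508. With the floor applied to both groups, 14 loci were called higher and 5 lower. A call that was not made does not show that the levels were equal. Plain CPM of all primed libraries lay above all unprimed libraries for 32 loci (17.8% of tested loci) and below for 33 (25.9% of tested loci). Without primed heat shock replicate 3, 17 loci were called lower in place of 7, of which 6 were among the 7.

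**Figure D5:**
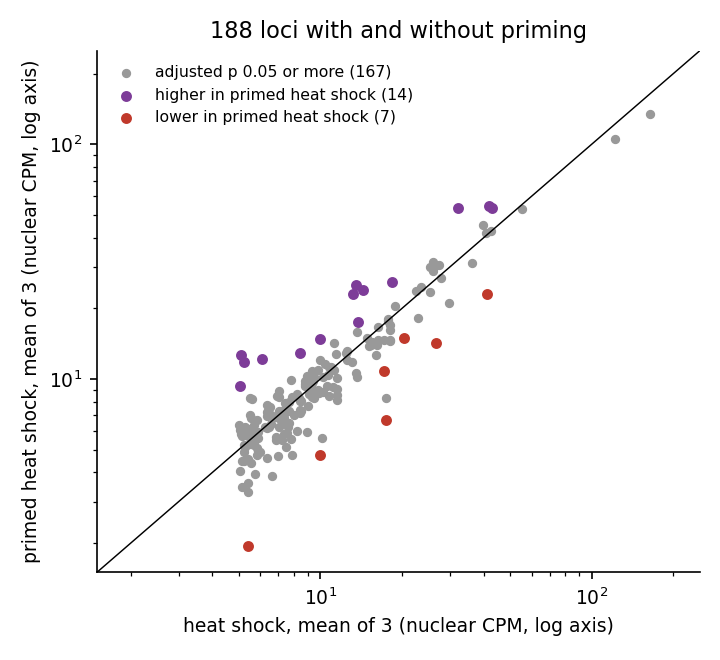
Mean level of each of the 188 loci in primed heat shock (vertical) and heat shock (horizontal), in nuclear CPM on log axes; the line marks equal levels. Purple points are the 14 loci higher and red points the 7 loci lower in primed heat shock by edgeR, and the other 167 lie close to the line.

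The loci that rose with priming included AT2G05300, a transcribed pseudogene, which had 13.6, 13.4 and 11.1 CPM in primed heat shock, against 4.9, 4.9 and 5.44 CPM in heat shock (log2 1.37 ± 0.15 SE, adjusted p = 7.27e-06, edgeR). AT5G58790, an uncharacterized protein gene, had 11.2, 12.2 and 11.9 CPM in primed heat shock, against 5.27, 5.31 and 5.18 CPM in heat shock (log2 1.22 ± 0.14 SE, adjusted p = 1.42e-05). The groups did not overlap in either gene, and the facing gene of AT5G58790 also had a higher level in primed heat shock, 38.5 against 22.8 CPM per kb in heat shock. AT5G26150, a protein kinase gene, had 27.7, 26 and 21.7 CPM in primed heat shock, against 14.8, 12.4 and 13.3 CPM in heat shock (log2 0.95 ± 0.17 SE, adjusted p = 0.000661). AT2G30505, a gene of the LEA hydroxyproline-rich family, had 67.6, 53 and 40 CPM in primed heat shock, against 31.7, 34.5 and 30.4 CPM in heat shock (log2 0.79 ± 0.18 SE, adjusted p = 0.00499). The others that rose were AT3G09620 (1.05), AT5G35780 (0.94), AT1G12244 (0.86), AT4G28070 (0.79), AT5G61400 (0.68), AT2G17036 (0.63), AT1G01310 (0.55), AT5G19150 (0.44), AT5G02950 (0.40) and PCB2 (0.38), each with its log2 difference. AT5G61400, AT1G01310, AT5G02950 and PCB2 lost their call under at least 1 alternative. AT5G61400 lost it without primed heat shock replicate 1, and AT1G01310, AT5G02950 and PCB2 each when any 1 of 5 libraries was left out. AT5G02950 also lost it under upper-quartile scaling. PCB2 also lost it under upper-quartile and relative log expression scaling, nuclear loci only, DESeq2 and the harvest-date block.

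Of the 7 called lower, ILL5 and AT2G36695 passed the 5 CPM floor only through heat shock, so their difference is a description. ILL5, an IAA-amino acid hydrolase-like gene, had 4.87, 4.62 and 4.75 CPM in primed heat shock, against 7.08, 11.3 and 11.6 CPM in heat shock. Its heat shock mean was 159 times the control mean, with 0.069, 0.0804 and 0.039 CPM in control. AT2G36695 had 1.62, 2.07 and 2.12 CPM in primed heat shock, against 2.87, 5.93 and 7.36 CPM in heat shock. AT3G19025, a transcribed pseudogene, had 5.61, 7.94 and 6.42 CPM in primed heat shock, against 16.8, 15.2 and 20.2 CPM in heat shock (log2 -1.33 ± 0.19 SE, adjusted p = 0.00013). AT5G08780, a winged-helix factor gene, had 23.1, 23.2 and 23 CPM in primed heat shock, against 39.1, 39.9 and 43.9 CPM in heat shock (log2 -0.77 ± 0.0893 SE, adjusted p = 1.79e-05). Primed libraries lay below unprimed ones in both of these genes. The facing gene of AT5G08780 is ATAF2, a NAC factor, at 114 CPM per kb in primed heat shock and 180 in heat shock. That of AT3G19025 had 50.1 and 95.6 CPM per kb. Of the 21 called loci, facing genes are given only for these 2 and AT5G58790. Whether the differences of the called loci follow their neighbours was not tested. The others that fell were AT1G19190 (-0.85), AT1G68845 (-0.62) and AT3G13770 (-0.40), each with its log2 difference; AT1G68845 and AT3G13770 lost their call with no scaling factor and also when certain single libraries were left out.

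Lists of stress and marker genes were set beside the loci. Of 209 loci on 14 lists of heat, jasmonate, WRKY, AP2/ERF, zinc finger, calcium, immune, low-oxygen, abscisic acid, auxin, mitochondrial, DNA damage, seed and root genes, ORA47 was the only member, which is 0.481% of 208 tested list entries, against 0.804% of all tested loci. All 18 core heat shock genes were called higher in priming against control and in heat shock against control, with medians of 8.65 and 3.02 log2. Of these, 14 met the 43 °C criteria of the rule and were left out by its priming criterion. HSFB1, HSFB2A, HSFB2B and CLPB3 were also under 3 times the control in heat shock. Of 23 tested AP2/ERF genes, 17 were called higher by edgeR in heat shock against control, where 25.0% of tested loci were called higher, and 10 higher and 2 lower in priming against control, where 27.5% were called higher and 27.6% lower. Of 25 WRKY genes, 8 were called higher and 1 lower in heat shock, near the share of all tested loci called higher, and 3 higher and 5 lower in priming. Of 21 early immune genes, 9 were called higher in heat shock, and 2 higher and 10 lower in priming. In primed heat shock against heat shock 7 AP2/ERF, 16 WRKY and 9 early immune genes were called lower, where 11.7% of tested loci were, and 15 of the 18 core heat shock genes were called higher, where 12.8% of tested loci were.

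Marker sums give the state of the seedlings. Root marker genes summed to 1552 to 1693 CPM in primed heat shock, 1263 to 1381 CPM in heat shock and 491 to 526 CPM in priming, against 1298 to 1664 CPM in control. Seed maturation markers summed to 40.8 to 60.4 CPM in primed heat shock, 38.5 to 52.6 CPM in heat shock and 63.9 to 90.3 CPM in priming, against 52.7 to 132 CPM in control. PYK10 carried most of the root marker sum, with means of 1457 CPM in primed heat shock, 1046 CPM in heat shock, 361 CPM in priming and 1053 CPM in control. The single root markers did not follow the sum: under TMM, 7 of 9 were called lower and 1 higher in primed heat shock against control (median log2 -1.17), 4 lower in heat shock and 5 lower in priming (medians -0.54 and -0.75). Among all tested loci, 29.8% were called lower and 29.5% higher in primed heat shock, 26.8% lower in heat shock and 27.6% lower in priming. The part of the root markers and seed markers in the levels of the set was not tested.

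Loci just inside and outside the thresholds were close in value. At the 5 CPM floor in heat shock, AT3G56330 was kept with 5.032 CPM and AT1G35625 was left out with 4.980 CPM. At the fold over control, AT2G05300 was kept with 3.038 and AT1G19690 was left out with 2.968 in heat shock, and AT1G76170 was kept with 3.027 and AT3G02370 was left out with 2.964 in primed heat shock. At the priming limit, AT5G26200 was kept with 0.999 and AT2G43690 was left out with 1.007 times the control.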

How the data were processed

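Ribosome-depleted RNA from 12 seedling libraries was analysed, 3 in each of 4 groups. The deposited files give, for each reference sequence, the number of reads aligned to it as raw counts, with each mate counted. Bowtie2, SAMtools, DESeq2 and genome build TAIR10 are named per the submitters' processing notes, with no versions and no strand setting for the counting. The loci were chosen on nuclear CPM, computed without the 4 ribosomal RNA loci named in the rule, and the members, gene lists and product classes were chosen with earlier results of these data known. Counts of all 12 libraries were fitted together in edgeR 4.0.16 (TMM, quasi-likelihood test, adjusted p under 0.05 over all sequences tested) in R 4.3.3, after a filter that kept sequences with about 10 reads or more in a group; the fit was tested on simulated data. Replicates differed beyond counting noise (chi-square per degree of freedom 10.6 to 77.9). p-values measure the spread between these libraries, and floors cover counting error only.

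Gene positions, neighbours, exon numbers and sequences came from RefSeq assembly TAIR10.1, matched by locus tag; levels per kb use the deposited sequence lengths. A facing gene lies on the opposite strand with its 3′ end towards that of the locus. Harvest dates in the labels tie replicate numbers across groups; deviations of same-numbered libraries correlated between -0.21 and 0.33. The report gives values for part of the loci named by a rule, which took those with the highest fold or level, those with the largest differences between both 43 °C groups, members of lists and classes, and those beside each threshold. Alternatives were other scaling factors, no filter, DESeq2 1.42.0, nuclear loci only, the 2 heat shock groups only, the replicate block, each library left out, other limits in the rule and, chosen after seeing the data, loci without shared exon bases and other neighbour distances.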

Additional observations from a re-analysis of the deposited data

How the results depend on the processing

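The size of the set followed the limits of its rule: 110 loci with TMM-scaled CPM (102 shared with the 188), 383 at 2-fold, 123 at 4-fold, 72 with a floor of 10 CPM, 101 with priming at or below 0.5 times control, 88 without shared exon bases, and 169 to 195 when a harvest date was left out. For primed heat shock against heat shock, the 14 loci called higher became 22 with only these 2 groups fitted and 7 without shared exon bases, and 10 to 14 with a library left out; the 7 called lower became 14 with only these groups, 11 with DESeq2, and 5 to 17 with a library left out, 17 being without primed heat shock replicate 3. For priming against control, the 14 called higher under TMM became 0 with no scaling factor (edgeR; also 0 at an unadjusted p under 0.05), 17 with DESeq2 under its own scaling and 7 to 19 with a library left out, and the 66 called lower became 145 with no scaling factor. Of the 152 loci with a facing gene, 59 share no exon base, as do 44 of the 81 with 1 exon; within 100 and 1000 bases the 152 became 132 and 156. The cause of these shifts was not tested beyond the smaller number of loci or libraries.

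With harvest date as a replicate block, 14 loci were called higher and 7 lower in primed heat shock against heat shock, 15 higher and 64 lower in priming against control, and 188 higher in heat shock and 188 in primed heat shock against control. The block ended the call of AT1G68845 and PCB2. Of 294 alternative values for the 21 loci called between the 43 °C groups, 259 kept direction and call, 35 kept direction only and 0 reversed; 15 loci held under every alternative, all but AT1G68845, AT1G01310, AT3G13770, AT5G61400, PCB2 and AT5G02950. Depth limits statements on loci near 0 in control and priming, where single reads move the ratios.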
